A study of Mus musculus with 72 samples.

Results

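Liver RNA taken at midday was compared with liver RNA taken at midnight in conventionally raised mice with an intact liver clock. Midday is ZT6, 6 h after lights on, when mice mostly rest and eat little, and midnight is ZT18, 18 h after lights on, when they are active and feed. The libraries were chosen by their labels, 3 at ZT6 and 3 at ZT18, which makes 6 of the 72 libraries of the series. All 6 mice were C57BL/6 males labelled Bmal1 fl/fl, here called WT. Their Bmal1 alleles carried loxP sites but no Cre was present, so the gene was not deleted. They were kept with their microbiota under specific pathogen-free (SPF) conditions. The labels give no age; the study's methods place the mice in early adulthood, housed singly and fed ad libitum. Each library came from the frozen liver of a separate mouse, so the spread between libraries includes that between mice. The other groups of the series were germ free (GF) WT mice and SPF or GF mice that also carried Albumin-Cre (LKO), which deletes Bmal1 in hepatocytes. They are used here only to set the same contrast beside that of SPF WT mice.

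Most mammalian cells carry a clock in which BMAL1 (gene Arntl) and CLOCK bind E-boxes in DNA and activate the Per, Cry, Nr1d1, Nr1d2 and Dbp genes. PER and CRY proteins then repress that activation, and the REV-ERB receptors (Nr1d1, Nr1d2) and ROR receptors compete for a second element through which they repress or activate Arntl itself. In the liver the clock and the daily cycle of feeding, temperature and hormones together time bile acid synthesis, glucose and lipid metabolism and protein folding. The study asked how the liver clock and gut microbes shape these rhythms, and the contrast of ZT6 with ZT18 sets opposite ends of the day against each other.

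The 6 libraries held 18337729 to 20832529 counts (median 19337275), and Alb, the gene of serum albumin, took the most counts in each of them, from 6.29% to 9.74%. All 8 hepatocyte markers were measured, with summed levels of 85268 to 116821 CPM, counts scaled to library size, at ZT6 and 115087 to 136397 at ZT18. Of the tested markers of other cell types, none differed between the times. Only 1 of 7 T and NK cell, 2 of 5 neutrophil and 1 of 7 pancreatic acinar cell markers had enough counts for the test. The summed levels of each of the 9 other cell types overlapped between the times. Ly6g, a defining neutrophil marker, and the acinar cell markers Prss1, Try4, Cpa1 and Ctrb1 were at 0. The ZT6 replicate 3 library held the most Kupffer cell and macrophage markers, 754 CPM (522 in ZT6 replicate 2 and 304 to 398 in the rest). It also held the most T and NK cell markers, 24.5 CPM (1.78 to 2.94 in the rest), and B cell markers, 14.9 CPM (2.97 to 8.78 in the rest). Neutrophil markers were highest in ZT6 replicate 2, at 21.1 CPM, then in ZT6 replicate 3, at 12.3 (1.5 to 5.33 in the rest). Whole liver was measured, so fewer cells of a type and less RNA per cell cannot be told apart. Transcripts of the mitochondrial chromosome took 4.99% to 5.98% of counts at ZT6 and 6.91% to 7.61% at ZT18, without overlap (two-sided exact permutation test, p = 0.1, the smallest that 3 against 3 allows).

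Between ZT6 and ZT18, 763 of the 13080 genes tested differed, which is 5.83%, at an adjusted p under 0.05 (edgeR quasi-likelihood test, Benjamini-Hochberg adjustment). Of these, 372 (2.84%) were higher at ZT6 and 391 (2.99%) higher at ZT18. All 763 separated the 3 libraries of one time from the 3 of the other, as did 3825 genes or 29.2% of all those tested. Their median difference had a size of 0.76 on the log2 scale, and 236 differed at least 2-fold, 105 of them higher at ZT6 and 131 higher at ZT18. Differences of at least 4-fold numbered 25 and 29 in the same order. Of the genes called, 727 coded for proteins. Over all genes tested the median log2 fold change, ZT6 minus ZT18 as throughout, was 0.02. Each library mattered to the count, which lay between 251 (without ZT6 replicate 2) and 424 (without ZT6 replicate 1) when 1 library was left out, and was 1204 by DESeq2's Wald test.

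**Figure D1:**
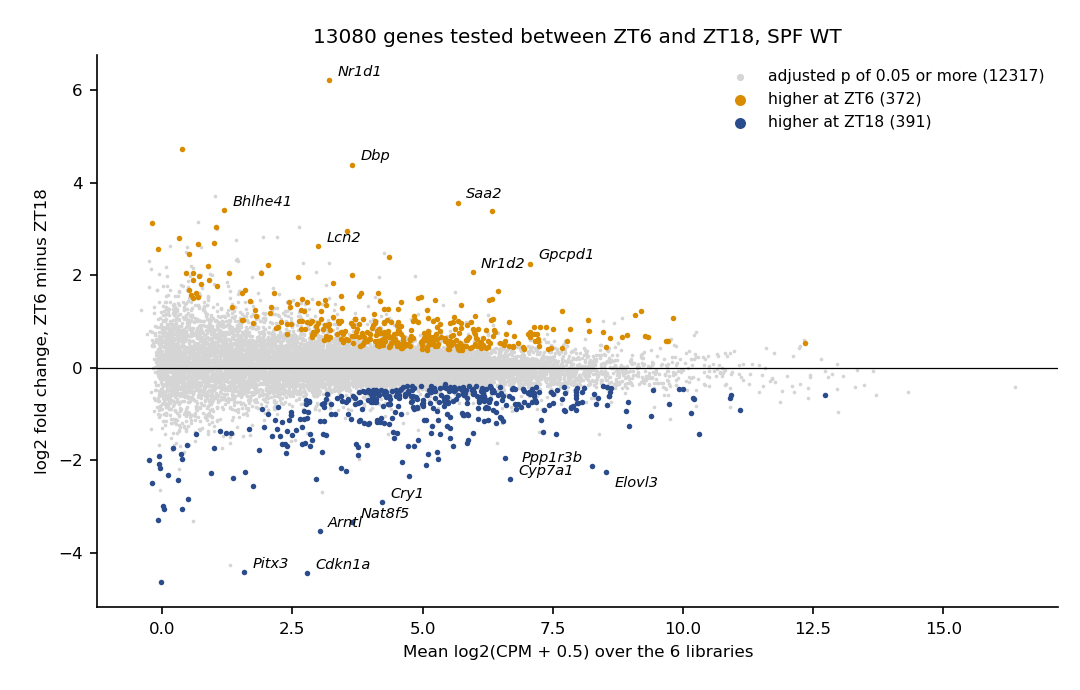
Each point is 1 of the 13080 genes tested, with its mean log2(CPM + 0.5) over the 6 SPF WT libraries on the x axis and its log2 fold change, ZT6 minus ZT18, on the y axis. Orange points are the 372 genes higher at ZT6 and blue points the 391 genes higher at ZT18 (adjusted p under 0.05), with Nr1d1 at the top and Cdkn1a and Pitx3 among the lowest.

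Of all named genes, the clock repressor Nr1d1 had the largest difference. Nr1d1 (chromosome 11 of GRCm38, 98767932 to 98775333, minus strand), which encodes the repressor REV-ERBα, measured 56.5, 57.3 and 74.2 CPM at ZT6 against 0.758, 0.86 and 0.909 at ZT18. The 2 sets lay far apart, with means of 62.7 ± 9.98 (SD, n = 3) and 0.842 ± 0.077 (SD, n = 3), 74.1-fold (log2 fold change 6.21, SE 0.18, edgeR adjusted p = 4.41e-06). Nr1d2, its paralog REV-ERBβ, was 134, 119 and 127 CPM at ZT6 and 24.3, 29.2 and 38 at ZT18 (log2 fold change 2.06, SE 0.16, edgeR adjusted p = 0.000914). Both receptors were thus called, 2 of 2 higher at ZT6, beside 2.84% of all genes.

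The activators went the other way. Arntl (chromosome 7, 113207465 to 113314126, plus strand), the target of REV-ERB repression, had 1.34, 2.3 and 2.87 CPM at ZT6 and 30.1, 26 and 19.7 at ZT18. Every midnight library held several times the level of any midday library, and the log2 fold change was -3.53 (SE 0.27, edgeR adjusted p = 0.000914). Clock, which encodes the partner of BMAL1, was 1.88-fold higher at ZT18, with 52.4, 66.2 and 59.4 CPM against 124, 110 and 102 (edgeR adjusted p = 0.00759). Rora, a receptor that activates Arntl, did not pass, with 101 to 105 CPM at ZT6 and 112 to 162 at ZT18 (edgeR adjusted p = 0.109). So both Arntl and Clock were higher at ZT18, 2 of the 3 genes tested on this side of the loop. None of the 3 was higher at ZT6 (2.99% and 2.84% of all genes were higher at ZT18 and ZT6). Rora was called by DESeq2 (adjusted p = 0.0452) and by edgeR without ZT18 replicate 3 (0.0422). Npas2, a paralog of Clock, was too low for the test, at 0.048 to 0.287 CPM at ZT6 and 2.27, 2.75 and 0.107 at ZT18. In fits that kept it, it was called by DESeq2 (0.0114), by edgeR without the filter (0.00828) and by edgeR without ZT18 replicate 3 (0.0228), but not in the fit of 18 libraries (0.0646) or without a ZT6 library (0.19 to 0.221).

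Repressors of the PER, CRY and DEC families did not share a direction, and 2 of 8 passed, beside 5.83% of all genes. Cry1 (chromosome 10, 85131700 to 85185064, minus strand) was 8.01, 6.95 and 4.88 CPM at ZT6 and 51.9, 57 and 40.3 at ZT18 (log2 fold change -2.91, SE 0.20, edgeR adjusted p = 0.000729), whereas its paralog Cry2 ran from 28.7 to 41.4 CPM over all 6 libraries with overlapping times (log2 fold change 0.20, edgeR adjusted p = 0.402). Bhlhe41 (DEC2), which competes for E-boxes, was 4.99, 4.56 and 5.64 CPM at ZT6 against 0.487, 0.172 and 0.749 at ZT18 (log2 fold change 3.40, SE 0.40, edgeR adjusted p = 0.00494), and its paralog Bhlhe40 had overlapping levels (log2 fold change 0.38, edgeR adjusted p = 0.401). None of the 3 Per genes, the partners of CRY, passed. Per1 overlapped between the times, from 22 to 48.8 CPM at ZT6 and from 5.4 to 39.5 at ZT18, the low value being replicate 3. Per2 had a log2 fold change of -0.88 (edgeR adjusted p = 0.0986) and Per3 one of 1.05 (edgeR adjusted p = 0.0553). Ciart, a repressor of the CLOCK-BMAL1 dimer, had no overlap, at 10, 2.07 and 3.78 CPM against 1.46, 0.745 and 0.909, but just missed the threshold (log2 fold change 2.34, SE 0.59, edgeR adjusted p = 0.0566). Of these 4, DESeq2's Wald test called Per2, Per3 and Ciart.

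The PAR bZIP factors carry the clock's timing to D-box elements of metabolic genes. Dbp (chromosome 7, 45705088 to 45710203, plus strand) was 66.7, 44.3 and 51.8 CPM at ZT6 and 1.41, 2.18 and 4.17 at ZT18, a 20.9-fold difference without overlap (log2 fold change 4.39, SE 0.33, edgeR adjusted p = 0.000914). Tef was 257, 180 and 186 CPM at ZT6 and 94.8, 118 and 125 at ZT18 (log2 fold change 0.89, SE 0.16, edgeR adjusted p = 0.0225), a call that was lost without ZT18 replicate 1 (adjusted p = 0.0705) or replicate 2 (adjusted p = 0.067). Hlf, the remaining PAR bZIP factor, overlapped between the times (log2 fold change -0.17, edgeR adjusted p = 0.617). Nfil3, which represses through the same D-box, had its 3 midnight values (33.9, 43.4 and 36.5 CPM) above its midday values (14.5, 24.9 and 9.9), yet its edgeR adjusted p was 0.0506. Nfil3 was called under each of the alternatives that kept all 6 libraries, at adjusted p from 0.000282 (no filter) to 0.0494 (DESeq2 size factors). In all, 7 of the 17 clock genes tested passed the threshold after any single library was left out: Arntl, Clock, Cry1, Bhlhe41, Nr1d1, Nr1d2 and Dbp. Of the 763 genes called among all 13080 tested, each of these fits kept between 238 and 357 in the same direction.

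**Figure D2:**
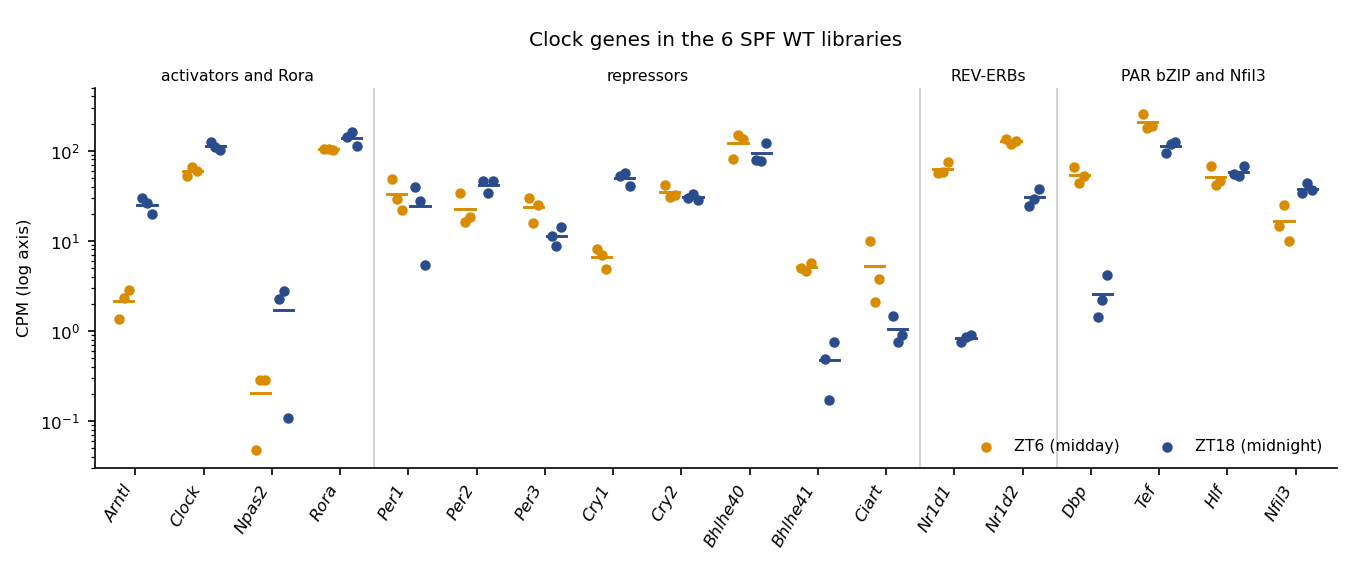
CPM on a log axis for 18 clock genes in the 6 SPF WT libraries, with 1 point per library, orange for ZT6 and blue for ZT18, and a bar at each mean (n = 3). Nr1d1, Dbp and Bhlhe41 sit high at ZT6 and Arntl and Cry1 high at ZT18, while the points of Per1, Cry2, Bhlhe40 and Hlf overlap.

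Promoter sequences of RefSeq (GRCm38.p6; 250 bases before to 50 after a start site) were searched on both strands for an E-box (CACGTG), a D-box (TTATGTAA or TTACGTAA) and a ROR element (TAGGTCA or TGGGTCA), and 1 stretch each from several clock genes and from Lonrf3 is shown so that the elements can be seen beside the levels. An E-box stood in 5 of the 16 clock genes that had an entry (Bhlhe41, Tef, Ciart, Cry1 and Per1), in 16.7% of the 299 genes higher at ZT6 and in 11% of the 299 genes higher at ZT18 that had entries, against 11.7% of the 9980 tested genes with entries and 7.15% of all 32851 promoters. Of the genes below, Bhlhe41 and Tef were higher at ZT6, Ciart had its 3 midday values on top without passing the test, and Cry1 and Lonrf3 were higher at ZT18, so the element was present on either side of the contrast. Capitals mark the E-box.
Bhlhe41 (chr6:145865538-145865603, minus strand): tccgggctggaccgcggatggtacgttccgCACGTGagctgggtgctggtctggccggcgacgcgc
Tef (chr15:81802516-81802581, plus strand): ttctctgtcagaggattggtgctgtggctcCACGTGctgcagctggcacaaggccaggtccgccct
Ciart (chr3:95882237-95882374, minus strand): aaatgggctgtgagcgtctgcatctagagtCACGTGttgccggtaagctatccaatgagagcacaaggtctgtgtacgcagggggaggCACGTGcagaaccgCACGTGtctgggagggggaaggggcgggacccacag
Cry1 (chr10:85185079-85185144, minus strand): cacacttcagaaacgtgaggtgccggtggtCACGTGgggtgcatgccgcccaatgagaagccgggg
Lonrf3 (chrX:36328334-36328399, plus strand): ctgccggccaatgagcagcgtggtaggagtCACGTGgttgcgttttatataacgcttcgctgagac

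The E-box of Cry1 began 60 bases before the start site and that of Lonrf3 45 bases before it, and Ciart held 3 within its window. A D-box stood in 1.06% of all promoters and in 0.902% of the tested genes with entries. It stood in 1.34% of the genes higher at ZT6 and in 2.01% of those higher at ZT18. Of the 16 clock genes 1 had it, Per3, in 2 copies. A ROR element stood in 6.45% of all promoters and in 6.32% of the tested genes with entries. It stood in 9.03% of the genes higher at ZT6 and in 8.7% of those higher at ZT18. Among the clock genes the ROR element was found in Nfil3, on the opposite strand and therefore read here as TGACCTA. It was also found in a promoter entry of Arntl, from 30 bases after the start site. Capitals mark the D-boxes of Per3 and the ROR element of Nfil3.
Per3 (chr4:151044786-151044900, minus strand): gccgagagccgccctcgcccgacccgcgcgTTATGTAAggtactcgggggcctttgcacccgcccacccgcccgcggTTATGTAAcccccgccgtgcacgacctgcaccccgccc
Nfil3 (chr13:52981040-52981081, minus strand): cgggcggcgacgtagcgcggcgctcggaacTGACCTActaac

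Beyond the clock, heat shock chaperones formed the list with the largest number of genes higher at midnight. Of 20 tested, 9 were higher at ZT18 and none at ZT6, beside 2.99% of all genes, and the list's median log2 fold change was -0.75 (all genes 0.02). Every one of the 20 had a log2 fold change below 0, from -1.69 to -0.03. Hspa4l, a nucleotide exchange factor of the HSP70 family, was 31.4, 23.9 and 23.8 CPM at ZT6 and 86.3, 87.3 and 83 at ZT18 (log2 fold change -1.69, SE 0.13, edgeR adjusted p = 0.000914). Hsp90aa1, the stress-inducible cytosolic HSP90, was 38.5, 35.8 and 26.7 CPM at ZT6 and 98.1, 108 and 95 at ZT18 (log2 fold change -1.57, SE 0.14, edgeR adjusted p = 0.00157). In both genes the midnight libraries lay close together, at 3.23-fold and 2.98-fold the midday mean. The HSP90 co-chaperones Chordc1 (2.22-fold), Fkbp4 (1.89-fold) and Stip1 (1.79-fold) were higher at ZT18 as well, and so were the constitutive HSP70 Hspa8 (1.82-fold), its partner Dnaja1 (1.78-fold), the small heat shock protein Hspb1 (3.2-fold, from 2.68 ± 0.675 to 8.63 ± 3.13 CPM, SD, n = 3) and the mitochondrial co-chaperonin Hspe1 (1.59-fold). Hsf1, the transcription factor of the heat shock response, did not differ measurably, at 9.02 to 10.9 CPM and 8.88 to 11.1 CPM (log2 fold change -0.03, SE 0.15), and its inducible targets Hspa1a and Hspa1b overlapped between the times. Without ZT6 replicates 1, 2 and 3 in turn, the count of 9 became 10, 5 and 6. Without ZT18 replicates 1, 2 and 3 in turn, it became 8, 5 and 6. Hspa4l, Hsp90aa1, Chordc1 and Fkbp4 kept their calls in all 6 of these fits.

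A heat shock element, searched as GAANNTTC on both strands, stood in 9 of the 15 chaperone genes with a promoter entry (60%). It stood in 5 of the 7 called ones and in 7.17% of all tested genes with entries. The neighbours Hspe1 and Hspd1, which lie on opposite strands, share 1 such element, counted for each of them. The stretches of 4 called chaperones follow, with the element in capitals, to show the letters and where they lie. Hspb1 held 2 copies.
Hspb1 (chr5:135887772-135887859, plus strand): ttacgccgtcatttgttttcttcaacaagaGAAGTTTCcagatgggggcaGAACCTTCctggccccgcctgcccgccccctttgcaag
Fkbp4 (chr6:128438770-128438837, minus strand): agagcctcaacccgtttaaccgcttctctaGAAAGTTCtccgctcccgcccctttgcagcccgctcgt
Dnaja1 (chr4:40722314-40722381, plus strand): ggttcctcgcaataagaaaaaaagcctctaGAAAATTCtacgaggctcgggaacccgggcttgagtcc
Hspe1 (chr1:55088034-55088101, plus strand): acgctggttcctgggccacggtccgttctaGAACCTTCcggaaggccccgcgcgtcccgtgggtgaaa

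Folding factors of the endoplasmic reticulum leaned the same way. Of 23 tested, 5 were higher at ZT18 and none at ZT6 (2.99% and 2.84% of all genes), with a median log2 fold change of -0.36. Sdf2l1, a cofactor of the chaperone BiP, was 21, 26.2 and 20 CPM at ZT6 and 40.6, 54.4 and 51.4 at ZT18 (log2 fold change -1.12, SE 0.15, edgeR adjusted p = 0.00759), and kept its call whichever library was left out. Creld2, a disulfide isomerase, was 40, 27.4 and 21.9 CPM against 57.9, 83.5 and 78.3 (log2 fold change -1.30, SE 0.22, edgeR adjusted p = 0.0187), a call lost without ZT6 replicate 2 (0.0739), ZT18 replicate 2 (0.0638) or ZT18 replicate 3 (0.0545). Pdia4, Hyou1 and Edem1 made up the other calls, at log2 fold changes of -0.58, -0.77 and -0.43. BiP itself (Hspa5) did not overlap between the times, 663 to 1103 CPM and 1367 to 1821 CPM, but had an edgeR adjusted p of 0.0501. Xbp1, Atf6 and Ern1, the sensors and factor upstream of these genes, had log2 fold changes of 0.36, 0.10 and 0.14 and did not pass. The count for this list was 1 to 4 with a library left out (1 without ZT6 replicate 2) and 11 by DESeq2.

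Of the 3 RNA-binding proteins known to be induced by mild cooling or to follow body temperature, Cirbp alone was called. It was 16.9, 19.3 and 18.2 CPM at ZT6 and 9.37, 10.3 and 6.42 at ZT18 (log2 fold change 1.06, SE 0.18, edgeR adjusted p = 0.0173), which made it higher at ZT6, opposite to the chaperones. Without ZT6 replicate 2 its adjusted p was 0.0662. Rbm3 ran from 7.17 to 13.1 CPM with overlapping times (log2 fold change -0.03).

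Genes of glycogen and glucose handling that passed were all higher at midnight. In the glycogen list 3 of 11 were higher at ZT18 (2.99% of all genes) and the median log2 fold change was -0.01, so the called genes stood apart from the rest of their list. Ppp1r3b, the liver subunit that targets protein phosphatase 1 to glycogen, was 189, 169 and 91.4 CPM at ZT6 and 725, 583 and 670 at ZT18 (log2 fold change -2.13, SE 0.25, edgeR adjusted p = 0.00494). Ppp1r3c, another targeting subunit, was 57.2, 70.8 and 58.8 CPM against 149, 136 and 110 (log2 fold change -1.08, SE 0.14, edgeR adjusted p = 0.00723). Both separated the times in every library and kept their calls whichever of the 6 was left out, but in the fit of all 18 SPF WT libraries Ppp1r3c had an adjusted p of 0.111. The branching enzyme Gbe1 (log2 fold change -0.57, edgeR adjusted p = 0.0368) lost its call in 5 of those 6 fits, with an adjusted p of 0.124 without ZT6 replicate 2. Glycogen synthase (Gys2) and phosphorylase (Pygl) had log2 fold changes of 0.20 and -0.54 and did not pass.

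In the list for glucose uptake and glycolysis 1 of 14 was higher at ZT18 (2.99% of all genes; median log2 fold change -0.23). Pfkfb1, the liver enzyme that makes and degrades fructose 2,6-bisphosphate, was 26.7, 25.3 and 21.7 CPM against 69, 67.6 and 60.5 (log2 fold change -1.42, SE 0.11, edgeR adjusted p = 0.000914). Pklr, liver pyruvate kinase, overlapped between the times (log2 fold change -0.90, edgeR adjusted p = 0.181).

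Gluconeogenesis gave few calls at these times. Of its genes 6 had an unadjusted p under 0.05 (edgeR), 2 above 0 and 4 below, beside 3119 of all 13080 genes. DESeq2 called 2, both higher at ZT18. By edgeR only Creb1 of 15 genes passed (6.67%, beside 5.83% of all genes). It was higher at ZT18 with a log2 fold change of -0.40 (edgeR adjusted p = 0.0488), and no fit that left out a library kept that call (highest adjusted p 0.164, without ZT6 replicate 2). Pck1, the cytosolic PEPCK, was 3481, 2387 and 2091 CPM at ZT6 and 2587, 3092 and 461 at ZT18, so that ZT18 replicate 3 alone fell outside the range of the others (log2 fold change 0.37, SE 0.56, edgeR adjusted p = 0.73). G6pc overlapped as well (log2 fold change -0.37, SE 0.23). 

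The same ZT18 replicate 3 library was lower than the other midnight libraries in a group of genes with large midnight levels. Cdkn1a, which encodes the cell cycle inhibitor p21, was 1.44, 0.939 and 2.63 CPM at ZT6 and 53.9, 51.4 and 3.69 at ZT18, so 2 of the 3 midnight libraries lay far above every midday library and the third just above them (log2 fold change -4.44, SE 0.91, edgeR adjusted p = 0.0314). The adjusted p was 0.000885 without that library and 0.0627 to 0.107 without any other. Pitx3, a homeobox factor, was 0.288, 0.61 and 0.478 CPM at ZT6 and 13.5, 12.6 and 3.96 at ZT18 (log2 fold change -4.42, SE 0.54, edgeR adjusted p = 0.00561). Elovl3, an elongase of very long chain fatty acids, was 127, 229 and 183 CPM against 1013, 1167 and 384 (log2 fold change -2.25, SE 0.40, edgeR adjusted p = 0.0198; 0.0614 without ZT18 replicate 1). Over all 391 genes higher at ZT18, however, replicate 3 was the midnight library nearest to the midday group in 33.5%, beside 30.9% for replicate 1 and 35.5% for replicate 2.

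Lipid synthesis genes were higher at midnight where they passed. Of 18 genes, 7 were higher at ZT18 and none at ZT6 (2.99% and 2.84% of all genes), with a median log2 fold change of -0.69. Elovl6, which elongates palmitate, was 119, 86.5 and 115 CPM at ZT6 and 166, 262 and 270 at ZT18 (log2 fold change -1.12, SE 0.20, edgeR adjusted p = 0.0206). Me1, malic enzyme, a source of NADPH, had a log2 fold change of -0.80, Acacb, the acetyl-CoA carboxylase of the mitochondrial surface, -1.10, Thrsp -1.04, Acly, ATP citrate lyase, -0.77 and Gpam, which starts triglyceride synthesis, -0.61. Pnpla3, the seventh, was at or under 1.14 CPM in each library. Fasn, fatty acid synthase, did not overlap (161, 214 and 283 CPM against 323, 449 and 1005) but did not pass (log2 fold change -1.43, SE 0.40, edgeR adjusted p = 0.0762), nor did its regulator Srebf1 (log2 fold change -0.17). With a library left out the list had between 0 (without ZT6 replicate 2 or ZT18 replicate 3) and 3 calls. Cholesterol synthesis and uptake had no edgeR call among 23 genes, with a median log2 fold change of -0.08, 4 genes at an unadjusted p under 0.05 and 3 calls by DESeq2 in mixed directions (1 higher at ZT6 and 2 at ZT18).

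Fatty acid oxidation and the targets of PPARA, the receptor that switches the liver to fat use, were split. Of 36 genes, 4 were higher at ZT18 and 1 at ZT6 (2.99% and 2.84% of all genes; median log2 fold change -0.09). Pdk4, the kinase that shuts off pyruvate dehydrogenase, was 5.56, 4.7 and 4.45 CPM at ZT6 and 14.8, 30.2 and 21.1 at ZT18 (log2 fold change -2.16, SE 0.25, edgeR adjusted p = 0.00494). The acyl-CoA thioesterase Acot1 (log2 fold change -1.52), the lipid droplet protein Plin5 (-1.25) and the peroxisome factor Pex11a (-0.78) were also higher at ZT18, and these 4 kept their calls whichever library was left out. Cpt1a, the gate for long-chain fatty acids into mitochondria, was 549, 440 and 397 CPM at ZT6 and 225, 323 and 266 at ZT18, opposite to the others (log2 fold change 0.77, SE 0.17, edgeR adjusted p = 0.0358), and its adjusted p was up to 0.103 with a library left out (without ZT18 replicate 3). Ppara itself had a log2 fold change of 0.36 and did not pass (edgeR adjusted p = 0.203). For ketone bodies, the transporter Slc16a1 was higher at ZT18 (log2 fold change -0.70) and the dehydrogenase Bdh1 higher at ZT6 (0.57; adjusted p up to 0.109, without ZT18 replicate 3).

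In bile acid synthesis 3 of 15 genes were higher at ZT18 (2.99% of all genes; median log2 fold change -0.19). Cyp7a1, the rate-limiting enzyme of the classic pathway, was 75.3, 27.9 and 38.7 CPM at ZT6 and 299, 153 and 297 at ZT18, 5.27-fold without overlap (log2 fold change -2.40, SE 0.39, edgeR adjusted p = 0.0151). It kept its call in every fit that left out a library, the highest adjusted p being 0.0498 without ZT18 replicate 1. Akr1d1, a reductase of the ring (log2 fold change -0.79), and Baat, which conjugates bile acids (-0.52), passed with all libraries and lost their calls in most fits with a library left out (up to 0.0952 for Akr1d1 without ZT18 replicate 3 and 0.156 for Baat without ZT6 replicate 2). Cyp8b1, which sets the share of cholic acid, had a log2 fold change of -1.39 and an edgeR adjusted p of 0.101.

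Drug-metabolizing genes gave 3 calls of 21, all higher at ZT18 (2.99% of all genes; median log2 fold change -0.29). Cyp2b10, the classic target of the receptor CAR, was 16.4, 12.6 and 14.1 CPM at ZT6 and 50.9, 36.6 and 52.3 at ZT18 (log2 fold change -1.70, SE 0.16, edgeR adjusted p = 0.00209), although in the fit of all 18 SPF WT libraries its adjusted p was 0.134. Gsta3, a glutathione transferase, was 1731, 1417 and 1612 CPM against 2898, 3411 and 2743 (log2 fold change -0.92, SE 0.14, edgeR adjusted p = 0.0103). The third was Sult1d1 (log2 fold change -0.83; adjusted p 0.0737 without ZT6 replicate 2). Cyp2b10 and Gsta3 belong to families of near-identical copies, for which counts of uniquely aligned reads are uncertain. Por and Alas1, which supply electrons and heme to the cytochromes, did not pass (log2 fold changes 0.22 and 0.30).

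Of 21 amino acid genes, 3 were higher at ZT6 and 1 at ZT18, beside 2.84% and 2.99% of all genes, so the single midnight call is close to the share over all genes. Agxt, which converts glyoxylate to glycine, was 335, 309 and 267 CPM at ZT6 and 177, 158 and 178 at ZT18 (log2 fold change 0.83, SE 0.11, edgeR adjusted p = 0.00778). The cationic amino acid transporter Slc7a2 (log2 fold change 1.23) and histidase Hal (0.65) were also higher at ZT6, with adjusted p up to 0.0895 (without ZT6 replicate 1) and 0.117 (without ZT6 replicate 2) when a library was left out. Asl of the urea cycle was 448, 303 and 300 CPM against 644, 661 and 707 (log2 fold change -0.93, SE 0.16, edgeR adjusted p = 0.0192; 0.0756 without ZT6 replicate 2), while Cps1, the entry to that cycle, did not pass (-0.39). Trib3, a pseudokinase that binds AKT, was the only call of 17 genes for insulin and growth hormone signalling (5.88%, beside 5.83% of all genes). Its levels were 12.5, 8.41 and 12.9 CPM at ZT6 and 2.65, 4.64 and 1.5 at ZT18 (log2 fold change 1.95, SE 0.37, edgeR adjusted p = 0.0234, and 0.0791 without ZT18 replicate 1). Nmnat3, a mitochondrial NAD synthesis enzyme, was the only call of 11 in its list (9.09%, beside 5.83% of all genes). It had a log2 fold change of 1.0 (edgeR adjusted p = 0.0203, and 0.0501 to 0.0608 with a library left out), and Nampt did not pass (-0.37).

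Acute phase proteins, secreted by hepatocytes in inflammation, were the list with the most genes higher at midday. Of 18, 5 were higher at ZT6 and none at ZT18, beside 2.84% of all genes, and the median log2 fold change was 0.61. Saa2 was 85.5, 226 and 244 CPM at ZT6 and 13.4, 11.8 and 21.5 at ZT18 (log2 fold change 3.57, SE 0.42, edgeR adjusted p = 0.00494), and Saa1 134, 427 and 259 CPM against 22.5, 22.9 and 32.7 (log2 fold change 3.39, SE 0.40, edgeR adjusted p = 0.00494). Orm2 was 29.1, 63.1 and 48 CPM against 7.96, 8.6 and 10.1 (log2 fold change 2.40, SE 0.27, edgeR adjusted p = 0.00433). The midday libraries differed among themselves, with replicate 1 lowest in all 3 genes but still above every midnight library. Orm3 and Lcn2 were the other calls (log2 fold changes 1.31 and 2.62), and both lost them in 5 of the 6 fits that left out a library (up to 0.118 for Orm3 without ZT6 replicate 2 and 0.121 for Lcn2 without ZT18 replicate 1). Saa1 and Saa2, like Orm2 and Orm3, are near-identical neighbours, so the split of reads between them is uncertain.

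The abundant acute phase genes had smaller differences that did not pass. Hpx, Itih3, Itih4, Hp and Fga had log2 fold changes of 0.60, 0.62, 0.71, 0.42 and 0.46 and edgeR adjusted p of 0.0682 to 0.197, while Crp had one of -0.38. The summed markers of 3 immune cell types were also higher in 2 of the 3 midday libraries than in any midnight library. T and NK cell markers were higher in replicate 3 alone. The latter summed to 2.35, 2.91 and 24.5 CPM at ZT6 and 2.82, 1.78 and 2.94 at ZT18. Kupffer cell and macrophage markers summed to 372, 522 and 754 CPM at ZT6 and 398, 304 and 382 at ZT18. Neutrophil markers summed to 2.35, 21.1 and 12.3 CPM and 3.3, 5.33 and 1.5, and B cell markers to 2.97, 8.78 and 14.9 CPM and 4.06, 5.9 and 8.18. None of these markers was called, though only 2 of the 5 neutrophil markers and 1 of the 7 T and NK cell markers were tested. The part of immune cells in the acute phase difference was not tested. Saa1, Saa2 and Orm2 kept their calls whichever library was left out. Each of these fits kept ZT6 replicate 2 or 3, so they did not test the part of immune cells.

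Of the remaining genes with the 12 largest differences in either direction, Gpcpd1, a phosphodiesterase that breaks down glycerophosphocholine, was 368, 213 and 298 CPM at ZT6 and 57.6, 69.9 and 57.9 at ZT18 (log2 fold change 2.25, SE 0.20, edgeR adjusted p = 0.00149). Slc37a1, a sugar phosphate transporter, was 2.21, 6.2 and 3.87 CPM against 0.596, 0.516 and 0.374 (log2 fold change 3.04), and Clec2h, a lectin, 34.2, 37.2 and 32.9 against 1.73, 2.06 and 9.68 (2.95; adjusted p 0.067 without ZT18 replicate 2). Nat8f5, of a family of acetyltransferases with near-identical copies, was 3.45, 3.19 and 4.49 CPM at ZT6 and 43.3, 27.8 and 41 at ZT18 (log2 fold change -3.33, SE 0.21, edgeR adjusted p = 0.000627). Lonrf3, a RING finger protein, was 1.06, 0.986 and 1.29 CPM against 6.93, 7.45 and 5.35 (log2 fold change -2.56, SE 0.24, edgeR adjusted p = 0.0018). The glutamate transporter Slc17a8 (log2 fold change -2.34) and Fam222a (-2.25) were higher at ZT18 with adjusted p up to 0.116 and 0.0787, both without ZT18 replicate 2. Gene models Gm15611 (2.21), Gm19522 (-2.40) and Gm43611 (-2.39) completed these 24. The counting did not use strand, and Gm19522 is annotated as antisense, so its reads and those of its partner cannot be told apart.

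Several lists showed few or no calls. Over all genes tested, 5.83% were called, 2.84% higher at ZT6 and 2.99% higher at ZT18. None of 36 cytosolic ribosomal proteins and none of 6 coenzyme A synthesis genes passed (edgeR), with median log2 fold changes of -0.13 and -0.10, and 1 of 20 ribosome biogenesis genes did, Nop58 at -0.51 (edgeR adjusted p = 0.0394; 0.109 without ZT6 replicate 3). The 5% called in that last list was close to the share over all genes. DESeq2 called none of the first 2 lists either, and 3 and 1 of their genes had an unadjusted p under 0.05. Genes that respond to glucocorticoids, which peak before the active phase, gave Klf9 higher at ZT6 (0.67) and Dusp1 higher at ZT18 (-0.77) of 12 tested, both under the threshold only with most libraries in (adjusted p up to 0.139 without ZT6 replicate 2 for Klf9 and 0.0882 without ZT18 replicate 1 for Dusp1). Among 20 cell cycle genes, Cdkn1a was joined by Ccne1, cyclin E1, at 1.97, 1.46 and 2.1 CPM against 0.217, 0.516 and 0.749 (log2 fold change 1.89, edgeR adjusted p = 0.0427; 0.121 without ZT18 replicate 2), while Wee1, known as a clock target, overlapped (-0.07). DESeq2 called more genes in several lists, and 1204 over all genes in place of 763. It called 10 of the 18 listed acute phase proteins higher at ZT6. Higher at ZT18 it called 7 of the 36 listed genes of fatty acid oxidation, 5 of 15 of glycolysis and 5 of 23 of drug metabolism. On the mitochondrial chromosome 6 of 21 genes were higher at ZT18 and none at ZT6, beside 2.99% and 2.84% of all genes. Of these 6 calls, 4 were transfer RNA genes, in libraries made from poly(A) RNA. The median log2 fold change of the 21 genes was -0.50, with mt-Nd1 at -0.58 and mt-Nd6 at -0.58.

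**Figure D3:**
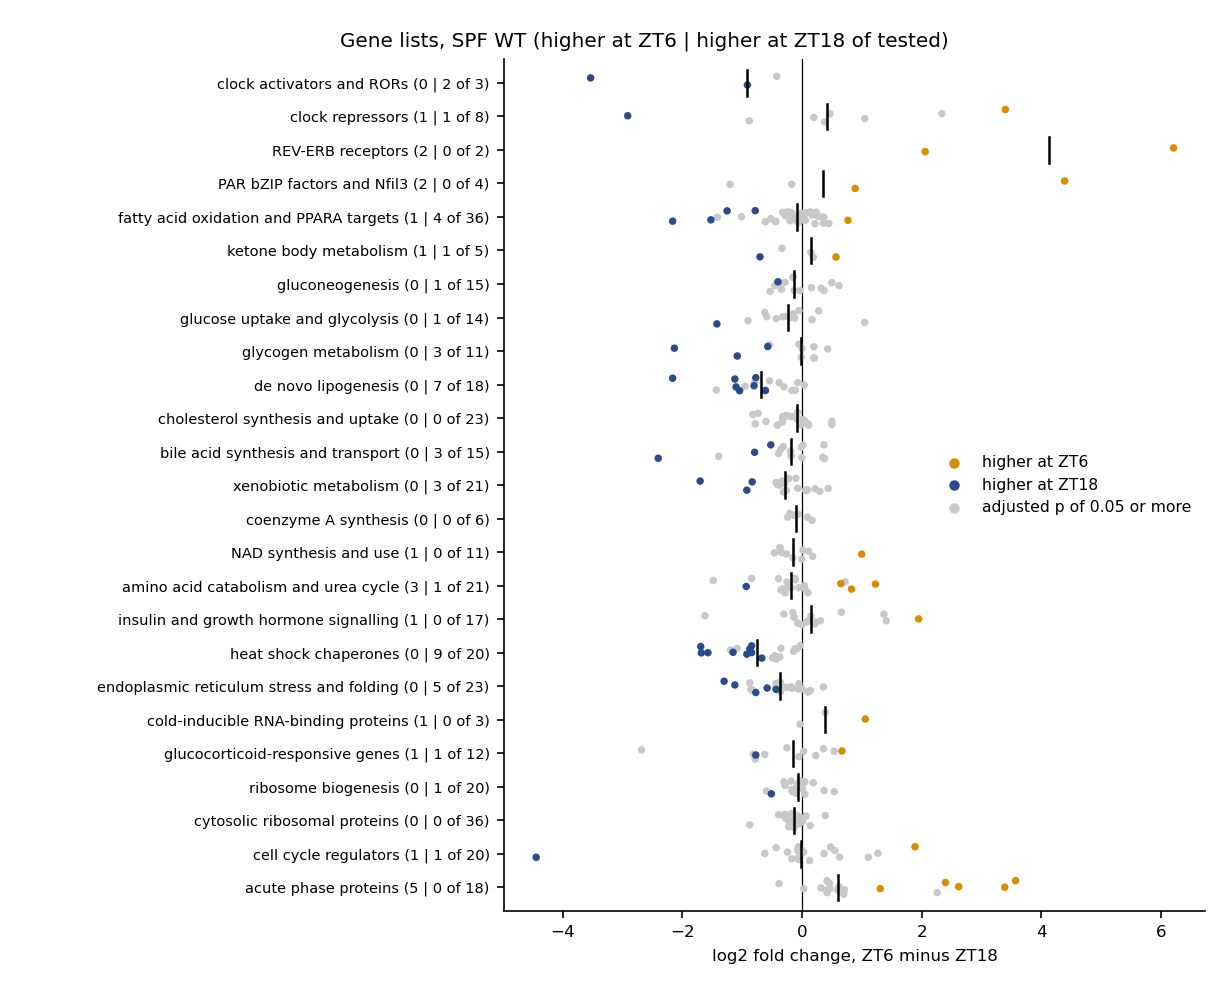
Log2 fold change, ZT6 minus ZT18, of each tested member of 25 gene lists in SPF WT livers, with orange for genes higher at ZT6, blue for genes higher at ZT18, grey for the rest and a black bar at the list's median. The numbers after each name give the genes higher at ZT6, those higher at ZT18 and those tested; heat shock chaperones (0 and 9 of 20) and acute phase proteins (5 and 0 of 18) lie furthest to either side among the longer lists.

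The 4 remaining times of SPF WT mice show where ZT6 and ZT18 fall in the daily course, as a description, since the ZT6 and ZT18 values of these genes were used to call them. Of the 372 genes higher at ZT6, 74.7% had their highest mean of the 6 times at ZT6 and 77.2% their lowest at ZT18 (21.1% and 20.7% of all genes tested). Of the 391 genes higher at ZT18, 67.8% had their highest mean at ZT18 and 52.9% their lowest at ZT6 (16.1% and 15.6% of all genes tested). Nr1d1 averaged 48.1 CPM at ZT2, 62.7 at ZT6 and 21.3 at ZT10, and 3.12 at ZT22. Arntl was lowest at ZT10 (1.28 ± 0.602 CPM, SD, n = 3) and highest at ZT22 (36.1 ± 3.34 CPM, SD, n = 3), so the contrast of ZT6 with ZT18 did not span its full range. Per2 and Per1 were highest at ZT14 (55.3 and 35.2 CPM) and Per3 and Ciart at ZT10 (39.7 and 12 CPM), between the times compared. Hspa4l, Hsp90aa1, Chordc1 and Fkbp4 each had their lowest mean at ZT6 and their highest at ZT18. Cyp7a1 climbed from 37.7 CPM at ZT2 to 147 at ZT10 and 250 at ZT18. Saa1 and Saa2 had their highest means at ZT6 and lay at 18 to 34.9 CPM at ZT10, ZT14 and ZT22, with ZT2 spread wide (Saa1 128 ± 152 CPM, SD, n = 3). At ZT14 the library of replicate 3 stood apart in clock genes, which is why Nr1d1 and Dbp have SDs above their means there (32.3 ± 45.9 and 26.5 ± 35.6 CPM, SD, n = 3).

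**Figure D4:**
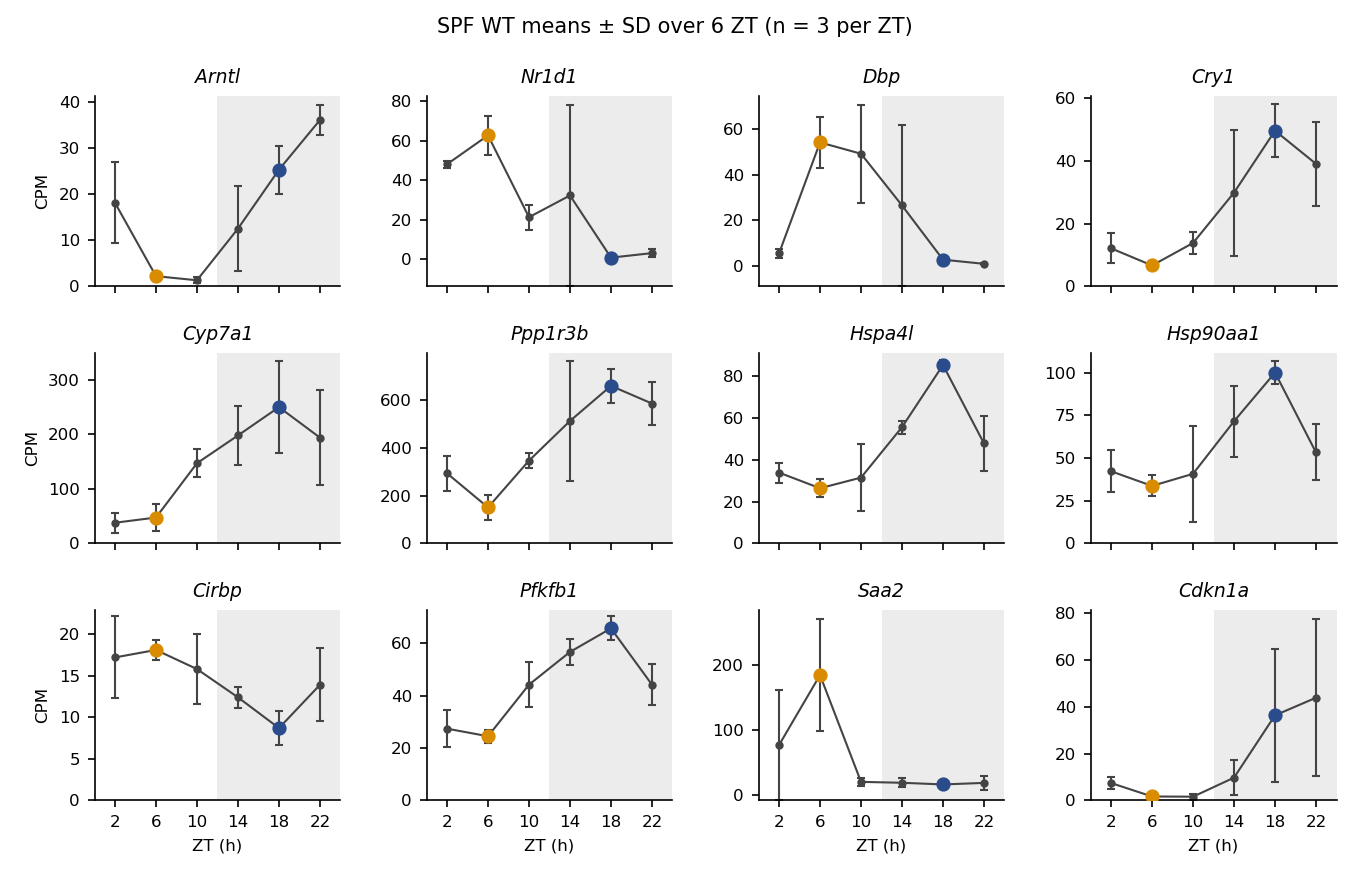
Mean CPM ± SD (n = 3) of 12 genes at the 6 times in SPF WT livers, with ZT6 in orange, ZT18 in blue and the dark phase shaded. Nr1d1, Dbp, Cirbp and Saa2 are highest at ZT6, Cry1, Ppp1r3b, Pfkfb1 and the chaperones Hspa4l and Hsp90aa1 are lowest there and highest at ZT18, and Arntl and Cdkn1a go on to their highest mean at ZT22. Error bars reach below 0 where the SD exceeded the mean.

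To ask whether the midday to midnight difference needs microbes or the liver clock, the same contrast was read in other mice, which share no library with it. Among these, the library labelled GF WT ZT6 replicate 3 stood apart (Nr1d1 at 9.36 CPM, against 50.5 and 49.2 in the other 2), and 1 library that bears the SPF LKO label at ZT18, its replicate 1, resembled WT (Arntl at 29.2 CPM, against 11.5 and 11.9). In GF WT mice 277 of 12463 genes were called (2.22%), 86 of them higher at ZT6 (0.69%) and 191 at ZT18 (1.53%), and 1423 without the library that stood apart. Of the 751 genes called in SPF WT mice that were tested there, 660 (87.9%) had the same sign, beside 59.6% of all genes, and 97 were called with that sign (12.9% of the 751 and 35% of the 277) and none with the opposite one. Without the library that stood apart, the same sign held for 721 of 754 (95.6%), and 418 were called with it (55.4% of the 754 and 29.4% of the 1423). In SPF LKO mice 43 of 13295 genes were called (0.323%), 18 higher at ZT6 (0.135%) and 25 at ZT18 (0.188%), and 318 without the library resembling WT. Still, 664 of 751 (88.4%) had the same sign, beside 65.8% of all genes, and 25 were called with it (3.33% of the 751 and 58.1% of the 43) and none against it. Without the library resembling WT, 656 of 752 (87.2%) had the same sign and 119 were called with it (15.8% of the 752 and 37.4% of the 318). Without any other single library the counts were lower, 2 to 51 in GF WT and 0 to 12 in SPF LKO mice. GF LKO mice, which lack both microbes and hepatocyte Bmal1, had more calls than SPF WT mice, 1670 of 12860 (13%). There 598 of 744 (80.4%) had the same sign, beside 62.8% of all genes, and 265 were called with it (35.6% of the 744 and 15.9% of the 1670) and 14 against it. For the genes higher at ZT6 the median log2 fold change was 0.74, and 0.44 in the GF mice. Over those tested in LKO mice it was 0.75 in SPF WT and 0.30 in LKO mice. The genes were chosen for their difference in SPF WT mice, so these medians are a description.

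Tested directly, the ZT6 to ZT18 difference differed between SPF WT and GF WT mice in 1 of 13277 genes, or 0.00753% (edgeR interaction test; 1663 at an unadjusted p under 0.05, 108 by DESeq2). The clock genes were not among them. Nr1d1 had log2 fold changes of 6.21 and 5.19 (SE 0.71), and the difference of 1.0 had an adjusted p of 0.642; Arntl had -3.53 and -2.88 (adjusted p of the difference 0.657). Saa1 and Saa2, by contrast, had log2 fold changes of 0.01 and 0.25 in GF WT mice, with Saa1 at 53.7, 105 and 19.3 CPM at ZT6 and 44.8, 73 and 59.8 at ZT18, but the differences of 3.36 and 3.30 from SPF WT mice did not pass (edgeR interaction adjusted p = 0.183 and 0.169). Heat shock chaperones had a median log2 fold change of -0.30 in GF WT and -0.78 in SPF LKO mice, and none of them passed either interaction. In SPF LKO mice Saa1 and Saa2 had log2 fold changes of 0.09 and 0.01, and again the differences did not pass (edgeR interaction adjusted p = 0.109 and 0.0732).

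Between SPF WT and SPF LKO mice, the difference differed in 28 of 13716 genes, or 0.204% (edgeR interaction test; 23 without the library resembling WT, and as few as 8 without SPF WT ZT18 replicate 1). Cry1 was at 50.8 to 68.8 CPM at ZT6 and 51.1 to 85.8 at ZT18 in LKO mice, so its midday low was not seen there (log2 fold change -0.24 against -2.91, edgeR interaction adjusted p = 0.00379, at most 0.0185 with any of the 12 libraries left out). Nr1d1 still differed in LKO mice, at 5.71 to 11 CPM at ZT6 and 0.493 to 1.3 at ZT18, but by 3.04 on the log2 scale instead of 6.21 (edgeR interaction adjusted p = 0.0168). This call was lost without SPF WT ZT18 replicate 1 (0.0788) or replicate 2 (0.0586), or SPF LKO ZT18 replicate 2 (0.0587). Arntl, whose counts do not separate the deleted part of the transcript, had -0.69 against -3.53 (edgeR interaction adjusted p = 0.0364). Without the library resembling WT, Arntl had -0.11 in LKO mice and the interaction adjusted p was 0.000548, while without any one of 10 other libraries it did not pass (up to 0.111, without SPF WT ZT18 replicate 1). Lonrf3, Mreg and Lgalsl had no midnight excess there, with log2 fold changes of 0.22, 0.41 and 0.04 against -2.56, -1.12 and -2.04. Dbp, at 1.76 against 4.39, did not pass (edgeR interaction adjusted p = 0.0817), nor did Cyp7a1 (-0.19 against -2.40, adjusted p = 0.105) or Ppp1r3b (-0.34 against -2.13, adjusted p = 0.0732). Among the metabolic and chaperone genes named above, no difference between the genotypes passed with all libraries in.

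**Figure D5:**
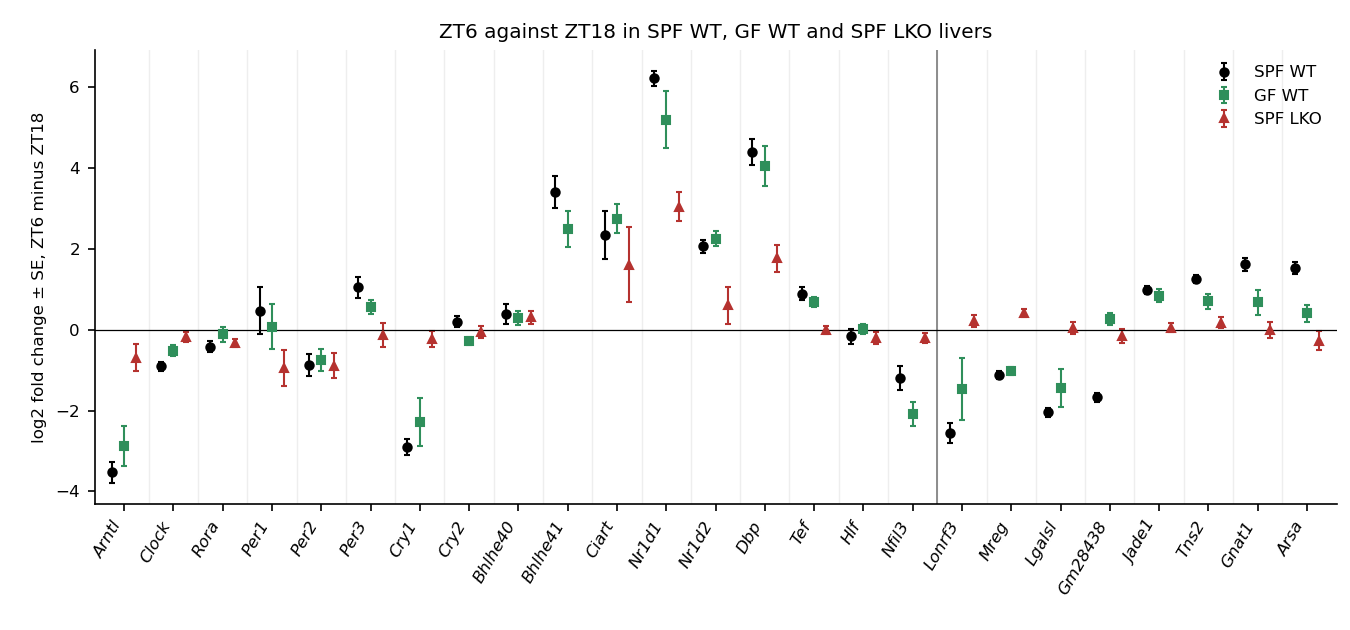
Log2 fold change ± SE, ZT6 minus ZT18, for the 17 clock genes tested (left of the line) and 8 genes with a difference between SPF WT and SPF LKO mice (right), in SPF WT (black circles), GF WT (green squares) and SPF LKO livers (red triangles). GF WT values of Nr1d1, Dbp, Arntl and Cry1 lie on the same side of 0 as those of SPF WT, though Cry1 was not called in GF WT mice. SPF LKO values of Arntl (-0.69) and Cry1 (-0.24) lie nearer to 0 than those of SPF WT (-3.53 and -2.91).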

How the data were processed

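Liver poly(A) RNA was sequenced as stranded single-end libraries. The deposited file holds raw read counts per gene for 72 libraries, which the authors made by aligning reads to mm10 with STAR 2.6.1b and counting exonic reads with featureCounts 2.0.0 without strand. Multimapping reads and reads over more than 1 gene were not counted, so near-identical genes can lose reads. All 55573 genes were read as deposited, and 55480 matched GENCODE vM21, from which positions were taken.

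Groups came from the labels. The 3 ZT6 and 3 ZT18 SPF WT libraries were fitted alone with the edgeR 4.0.16 quasi-likelihood test in R 4.3.3 (TMM scaling, default low-count filter), and p-values were adjusted by the Benjamini-Hochberg method over all genes tested, with a threshold of 0.05. Differences between groups were tested as interaction terms over 12 libraries. Counts per 1000000 reads (CPM) used TMM factors over all 72 libraries. Marker sums were compared by a two-sided exact permutation test. Alternatives were the DESeq2 1.42.0 Wald test, DESeq2 size factors in edgeR, no filter, a replicate block, a fit of all 18 SPF WT libraries, a 2-fold minimum and each library left out.

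The fitting code was tested on simulated data with known changes. The gene lists and comparisons were chosen with earlier results of these data known. Genes were named by rule: all clock genes, the 12 largest called differences in each direction without overlap and above a mean level of 1 log2 CPM, up to 4 called genes a list with the smallest adjusted p, the list's best-known step, and up to 5 genes in each direction of an interaction. Other list members and mitochondrial genes were chosen after their values were seen. Some genes are not reported here and stand in no list. Promoters were taken from RefSeq (GRCm38.p6).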

Additional observations from a re-analysis of the deposited data

Results flagged for a closer look

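The difference between ZT6 and ZT18 was itself different between SPF WT and GF WT livers in 1 gene, Gm28438, an unprocessed pseudogene on chromosome 1. It measured 8.54, 8.17 and 8.17 CPM at ZT6 and 27.4, 23.9 and 27.9 at ZT18 in SPF WT mice, against 17.6, 18.9 and 23.7 and 16.4, 18.7 and 15 in GF WT mice, a difference of the log2 fold changes of -1.96 (edgeR interaction adjusted p = 0.00173). In SPF LKO mice it ran from 7.5 to 10.9 CPM over both times, and the difference from SPF WT was -1.52 (adjusted p = 0.00647).

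Between SPF WT and SPF LKO livers 28 genes differed in this way, 21 of them with a larger midnight excess in SPF WT mice or a smaller midday one, and 7 with the opposite sign. On the negative side the differences of the log2 fold changes were -1.54 for Mreg (edgeR interaction adjusted p = 0.000281), -2.80 for Lonrf3 (0.000397), -2.09 for Lgalsl (0.000731), -2.68 for Cry1 (0.00379) and -2.86 for Arntl (0.0364). On the positive side they were 3.15 for Nr1d1 (0.0168), 0.91 for Jade1, 1.06 for Tns2, 1.62 for Gnat1 and 1.79 for Arsa (each 0.0306). Leaving out replicate 1 of SPF LKO at ZT18, which resembled WT, Jade1 and Tns2 lost their calls (adjusted p = 0.056 and 0.061). Over all 12 omissions of 1 library, Gm28438, Mreg, Lonrf3, Lgalsl and Cry1 kept their calls. Nr1d1 lost its call in 3, Arsa in 7, Jade1 and Gnat1 in 9 each, and Tns2 and Arntl in 10 each. The highest adjusted p was 0.0788 for Nr1d1, 0.109 for Jade1, 0.111 for Arsa and 0.111 for Arntl, all 4 without SPF WT ZT18 replicate 1, which left none of the 7 positive calls. It was 0.0992 for Tns2 without SPF LKO ZT6 replicate 2 and 0.103 for Gnat1 without SPF LKO ZT6 replicate 3.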

How the results depend on the processing

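Of 107 named genes, 74 were called with all 6 libraries, none changed direction under any alternative while called, 42 kept their calls whichever library was left out and 39 under every alternative. DESeq2 called 1204 genes between ZT6 and ZT18 in SPF WT mice, 742 of the 763 among them, edgeR without a filter on low counts called 1235, and a minimum of 2-fold left 236. With 1 library left out the count ran from 251 to 424. Each of those fits had fewer libraries, and the cause of the lower counts was not tested. For GF WT mice, in place of 277, the counts were 724 by DESeq2, 733 without the filter, 97 with the replicate block and 2 to 1423 with 1 library left out. For SPF LKO mice, in place of 43, they were 442, 635 and 0 to 318 without a block, and 37 with it. The interaction with GF WT gave 108 genes by DESeq2, 398 without the filter and 1 to 2 with a library left out, in place of 1. The interaction with SPF LKO gave 121, 417 and 8 to 31, in place of 28. Without the filter many genes had only a few counts. A replicate block gave 535 calls in SPF WT mice, 468 of them shared, and 1 and 21 for the interactions. Deviations of same-numbered libraries correlated at -0.127, 0.148 and 0.043, and those of differently numbered libraries at -0.323 to 0.266. With 3 libraries at each time, these values cannot decide whether the numbers pair the mice.

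Uncalled genes near 0 changed sign with single libraries left out, their log2 fold changes running from -0.01 to 1.02 for Per1, -0.1 to 0.8 for Pck1, -0.38 to 0.34 for Srebf1, -0.19 to 0.42 for Irs2 (-0.17 and -0.1 in between), -0.12 to 0.04 for Hsf1 (0.02 and 0.03 in between), -0.09 to 0.03 for Nr3c1, up to 0.11 for Rplp0 (0.04 in between) and -0.44 to 0.38 for Wee1 (0.17 in between). Irs2 was also at -0.02 by DESeq2, -0.01 with its size factors and -0.02 in the fit of 18 libraries. With 3 mice at each time, a gene that did not pass is not thereby shown to be at 1 level at both times.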
